A study of Mus musculus with 2 samples.

Results

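Lysosomal proteases were followed through the leukocytes of mouse visceral adipose tissue (VAT). The members were chosen by symbol alone, as the rows Ctsa, Ctsb, Ctsc, Ctsd, Ctsh, Ctsl, Ctss, Ctsz and Lgmn of the gene files, and all 9 of the 9 were found among the 27998 genes of the files. The files hold counts of unique molecular identifiers (UMIs, 1 per captured RNA molecule) for single CD45+ cells sorted from perigonadal VAT, in 1 library of mice under caloric restriction (CR) and 1 library of obese mice. By the study's methods, both groups were C57BL/6J males, 6 weeks old on arrival and given 2 weeks to settle, that received a high-fat diet with cholesterol for 24 weeks and weekly antisense oligonucleotides against the LDL receptor, and the CR mice then received 70% of their former intake for 2 weeks. The label of the CR library reads life-long restriction instead, so the length of the restriction differs between the label and the methods. The number of mice per library is not given in the sources used here. With 1 library per condition there is no replicate, so no test was run. Intervals below are exact 95% intervals for counting error only, and differences between mice, or between 2 preparations of the same tissue, cannot be told apart from those between the diets.

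Cathepsins are proteases that work mostly in the acid interior of endosomes and lysosomes, where they break down protein taken up by the cell and cut precursors into active forms. Ctsb, Ctsc, Ctsh, Ctsl, Ctss and Ctsz encode cysteine cathepsins, Ctsd the aspartic cathepsin D, and Ctsa the serine carboxypeptidase cathepsin A, which also protects the lysosomal enzymes neuraminidase and beta-galactosidase. Lgmn encodes legumain, which cuts after asparagine and processes other cathepsins. In macrophages (MØs) these enzymes digest the protein of engulfed cells. In antigen-presenting cells they degrade the invariant chain of MHC class II (MHCII) and prepare peptides. RNA was measured here, not enzyme or activity.

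After removal of cells with few genes, high mitochondrial share or very many UMIs, 2987 of 3562 CR cells and 5262 of 5795 obese cells were kept, with medians of 4802 and 6740.5 UMIs per cell. Cells were placed in 13 gates by marker genes that include none of the 9 proteases, and 1682 CR cells and 3427 obese cells fell in a gate. The 5 MØ gates were lipid-associated MØs (Gpnmb, Mmp12, Atp6v0d2; 93 CR and 620 obese cells), C1q MØs (C1q genes and Apoe; 133 and 783 cells), resident MØs (Lyve1, Cbr2, Fcna; 32 and 263 cells), and Fcgr4-high MØs with low MHCII (497 and 157 cells) or positive for MHCII (76 and 112 cells). The C1q MØs had to be high in Apoe, and below the limits for Fcgr4 and for the lipid-associated, resident and DC markers. The other gates were classical monocytes (68 and 127 cells), patrolling monocytes (34 and 84), conventional dendritic cells (DCs) of type 1 (cDC1; 67 and 223) and type 2 (cDC2; 80 and 149), migratory DCs (38 and 63) and B cells (158 and 155), with T cells (330 and 565) and erythroid cells (76 and 126) for comparison with free RNA, which gives UMIs in cells that do not express a gene. The gates were checked with markers kept out of them. Trem2 had 1414 and 1429 counts per 1000000 UMIs (CPM) in the CR and obese lipid-associated MØs, against medians of 67.2 and 93 CPM over the other gates, and Folr2 had 1054 and 1371 CPM in the resident MØs. Cd163, another resident marker, had only 7.86 CPM in the CR resident MØs, against 55.8 CPM in the obese ones. Markers of non-haematopoietic cells differed between the libraries: their sum over 12 markers was 206 to 348 CPM in the 10 CR myeloid gates, against 15.8 to 42.4 CPM in the obese ones. The sum of 7 B cell markers was 345 and 273 CPM in the Fcgr4-high MHCII-low and 271 and 214 CPM in the MHCII-positive MØs, against 27.5 to 51.1 CPM in the other MØ gates. Most of it was Cd79b, with 328 and 263 CPM in the MHCII-low and 233 and 184 CPM in the MHCII-positive cells, while the other 6 had at most 15.4 CPM each, against 2459 and 2306 CPM of Cd79a in B cells. Pax5 was at 0 in the MHCII-positive cells of both libraries, and Cd22 was at 0 in the obese MHCII-low cells. The 2 libraries share 28 cell barcodes. Erythroid cells of the 2 libraries differed widely, with 56.3% of the genes measured in them past 2-fold between CR and obese, so T cells are given beside them. The erythroid gate also set no limit on C1q genes. Their sum over 3 genes was 652 and 1449 CPM in CR and obese erythroid cells, against 376 and 340 CPM in T cells. Whether MØ RNA adds to the erythroid levels was not tested.

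The 9 proteases together took 2.40% of all UMIs in the CR lipid-associated MØs and 2.19% in the obese ones, the largest share of any gate. That share was 1.40% and 1.2% in the C1q MØs, 1.63% and 1.27% in the resident MØs, and 0.857% and 0.790% in the Fcgr4-high MHCII-low MØs. Among the 11 gates other than T and erythroid cells it was lowest in cDC1, with 0.231% and 0.193%, close to the 0.177% and 0.211% of T cells. The members did not share 1 order of cells. Over these gates, 5 of the 9 were highest in the lipid-associated MØs of the CR library (Ctsb, Ctsd, Ctsl, Ctss, Ctsz) and 6 in those of the obese library (the same ones and Ctsa). Ctsc and Lgmn were highest in the resident MØs of both libraries, as was Ctsa in the CR library. Some of these ranks are ties within counting error. In the CR library, the interval of Ctsc (1423 CPM) overlapped that of classical monocytes (1351 CPM). That of Ctsa (602 CPM) overlapped that of lipid-associated MØs (577 CPM). In the obese library, Lgmn (1652 CPM) overlapped lipid-associated MØs (1617 CPM). Ctsh was highest in the Fcgr4-high MHCII-low MØs of both. Ctsl spanned the widest range over gates, 48.0-fold in the CR library and 64.5-fold in the obese one, and Ctsz the narrowest, 3.64-fold and 4.02-fold.

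**Figure D1:**
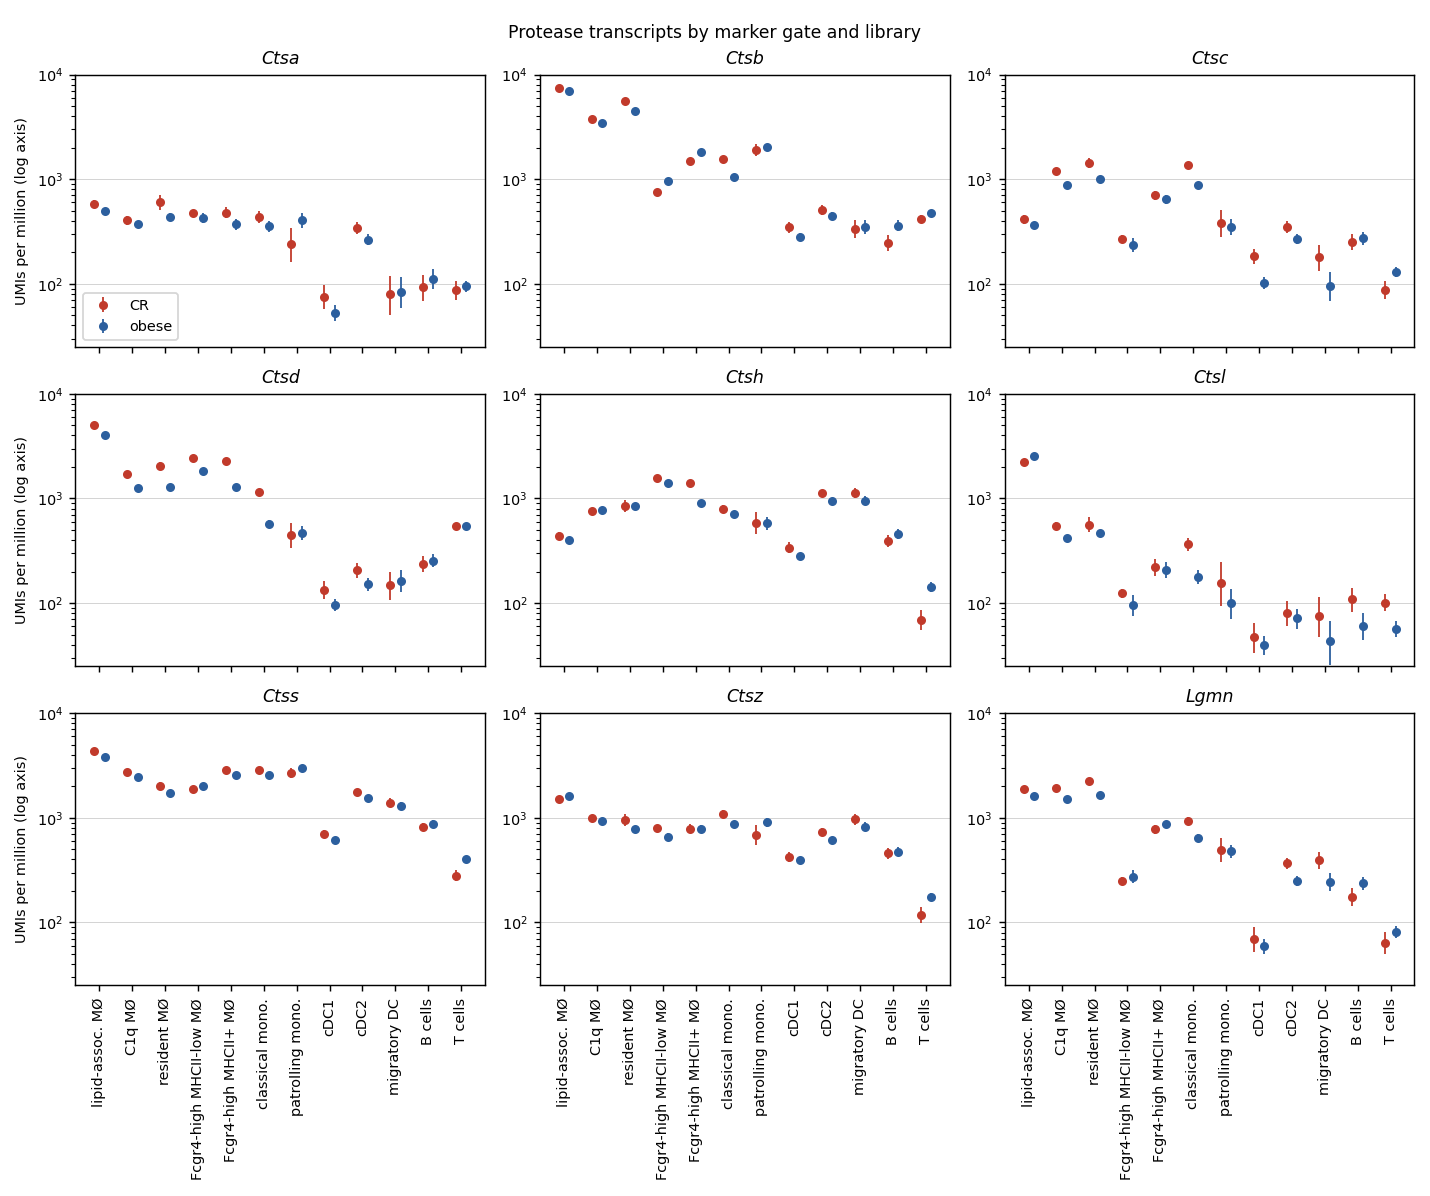
Level of each of the 9 proteases in each gate except erythroid cells, in CPM on a log axis. The CR library and the obese library are separate points, with exact 95% counting intervals as bars. Ctsl is high in lipid-associated MØs and low in Fcgr4-high MØs, whereas Ctsh peaks in Fcgr4-high MHCII-low MØs.

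Ctsl (chr13:64359337-64370890, GRCm38, the build called mm10), which encodes the endopeptidase cathepsin L, set the lipid-associated MØs apart from the C1q MØs most. It had 2256 CPM (interval 2164 to 2350) in the CR lipid-associated MØs, against 545 CPM in the CR C1q MØs, and 2565 CPM (2529 to 2601) in the obese lipid-associated MØs, against 415 CPM in the obese C1q MØs. As log2 ratios, for which 5 CPM were first added to both levels here and below, this gave 2.04 (1.91 to 2.18) in the CR library and 2.61 (2.57 to 2.69) in the obese one. After every cell was thinned to 1500 UMIs, 74.2% of CR and 72.9% of obese lipid-associated MØs had a Ctsl UMI, against 44.4% and 39.5% of C1q MØs and 17.6% and 8.14% of T cells. Without thinning, the lipid-associated MØs had 89.2% and 94.5%. The RNA was uneven among these cells: the top 5% of lipid-associated MØs held 40.3% of their Ctsl UMIs in the CR library and 37.5% in the obese one.

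Ctsd (chr7:142375911-142388038), the aspartic protease, was also higher in lipid-associated MØs, with 5086 CPM in the CR cells, against 1719 CPM in the CR C1q MØs, and 4024 CPM in the obese cells, against 1264 CPM in the obese C1q MØs (log2 ratios 1.56 and 1.67). Ctsb (chr14:63122462-63145923), which encodes cathepsin B, a protease that can trim peptides from 1 end as well as cut within proteins, had 7431 CPM in the CR lipid-associated MØs, against 3725 CPM in the CR C1q MØs, and 7007 CPM in the obese ones, against 3410 CPM. Its log2 ratios of 1.00 (0.94 to 1.05) and 1.04 (1.02 to 1.06) lie on the 2-fold line, just under it in the CR library and just over it in the obese one. In the opposite direction, Ctsc (chr7:88278085-88310888), whose dipeptidyl peptidase activates granule serine proteases, had 415 CPM in the CR lipid-associated MØs, against 1200 CPM in the CR C1q MØs, and 363 CPM in the obese ones, against 876 CPM (log2 ratios -1.52 and -1.26). Ctsh (chr9:90054152-90076089), an aminopeptidase, had log2 ratios of -0.78 and -0.95. Ctss (chr3:95526786-95556403), which cuts the invariant chain, Ctsz (chr2:174427493-174439039), a carboxypeptidase, and Ctsa (chr2:164832873-164841032) lay between 0.41 and 0.79 in both libraries. Lgmn (chr12:102394084-102439813) was level, with 1894 CPM in the CR lipid-associated MØs, against 1933 CPM in the CR C1q MØs, and 1617 CPM in the obese ones, against 1524 CPM. In the lipid-associated MØs 2 of the 9 were over 2-fold higher and 1 over 2-fold lower than in C1q MØs in the CR library, where 4.5% of all genes measured were that much higher and 4.61% lower. In the obese library 3 were higher and 1 lower, against 3.7% and 4.29% of all genes.

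The same order appeared within C1q-positive cells when they were ranked by the summed rate of Gpnmb, Mmp12 and Atp6v0d2. These markers also set the gates, at 5 or more for lipid-associated and below 3 for C1q MØs. The ranking is therefore no separate support for the contrast of these gates. In the obese library, cells with under 1, 1 to 3, 3 to 5, 5 to 15, 15 to 50 and at least 50 of these UMIs per 10000 had 309, 477, 1050, 1300, 3678 and 4149 CPM of Ctsl. Ctsc ran the other way over the same bins, with 889, 766, 635, 520, 389 and 209 CPM. In the CR library Ctsl had 423, 548, 801, 1310 and 1713 CPM over the first 5 bins, and Ctsc had 1062, 1113, 828, 586 and 414 CPM. The last CR bin held 8 cells and is not read. Ctsd had 1076 CPM in the lowest and 6332 CPM in the highest obese bin. Lgmn stayed between 1351 and 1890 CPM over the 6 obese bins. Thus Ctsl and Ctsd were more abundant, and Ctsc less, in cells with more of the lipid-associated markers, while Lgmn was little changed along that ranking.

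**Figure D2:**
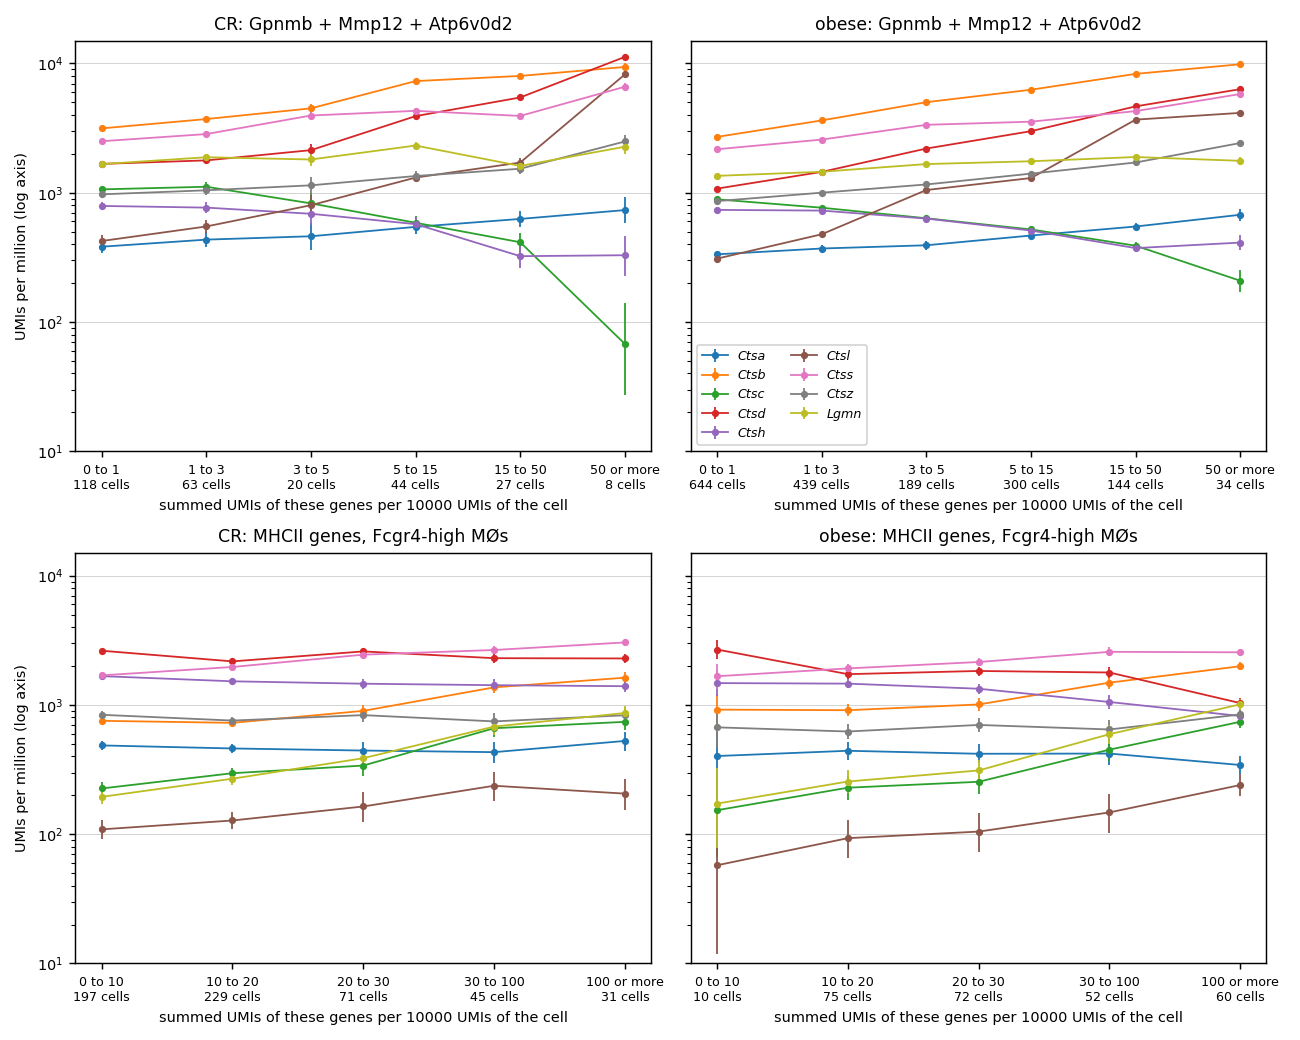
Level of selected proteases, in CPM on a log axis, over bins of cells ranked by marker rate (UMIs per 10000), for the CR and the obese library with exact 95% counting intervals. In the obese library, Ctsl climbs to 4149 and Ctsc drops to 209 CPM with the lipid-associated markers, and Lgmn climbs to 1011 CPM with MHCII in Fcgr4-high MØs.

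Fcgr4-high MHCII-low MØs had less RNA for legumain and cathepsins B, C and L than C1q MØs, and more for cathepsins D and H. Lgmn had 250 CPM in these cells of the CR library, against 1933 CPM in C1q MØs, and 274 CPM in those of the obese library, against 1524 CPM. Its log2 ratios of -2.93 (-3.07 to -2.83) and -2.45 (-2.68 to -2.28) were the lowest of the 9 in each library. After thinning, 28.8% of CR and 24.8% of obese Fcgr4-high MHCII-low MØs had a Lgmn UMI, against 86.5% and 85.7% of C1q MØs and 8.48% and 12% of T cells. Without thinning, the MHCII-low cells had 60.8% and 58.6%. Ctsb had log2 ratios to C1q MØs of -2.29 and -1.83, Ctsc of -2.13 and -1.88, and Ctsl of -2.10 and -2.06. The Ctsl level was 124 CPM in the CR library, close to that of T cells (101 CPM). In the obese library it was 95.8 CPM (75.1 to 120), above T cells (56.8 CPM, 47.9 to 67.0) and below erythroid cells (207 CPM). Erythroid cells carried more C1q RNA than T cells, so the obese comparisons do not settle whether Ctsl is expressed. No expression is read.

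In the same cells Ctsh had 1580 CPM in the CR library, against 755 CPM in C1q MØs, and 1407 CPM in the obese library, against 774 CPM (log2 ratios 1.06, interval 0.96 to 1.18, and 0.86, interval 0.77 to 0.96). Ctsd had 2417 CPM, against 1719 CPM, in the CR library and 1840 CPM, against 1264 CPM, in the obese library (log2 ratios 0.49 and 0.54). Of the UMIs of the 9 proteases, Ctsd took 28.2% in the CR and 23.3% in the obese MHCII-low cells, against 12.3% and 10.5% in C1q MØs, and Lgmn took 2.92% and 3.47%, against 13.8% and 12.7%. Ctsa, Ctss and Ctsz differed from C1q MØs by at most 0.51 on the log2 scale. Counted together, 4 of the 9 were over 2-fold lower than in C1q MØs in each library, and 1 was over 2-fold higher in the CR library and 0 in the obese library. Over all genes measured, 9.09% and 8.61% were that much lower and 11.2% and 12% higher, so these 2 kinds of MØ differ in many genes besides the proteases.

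**Figure D3:**
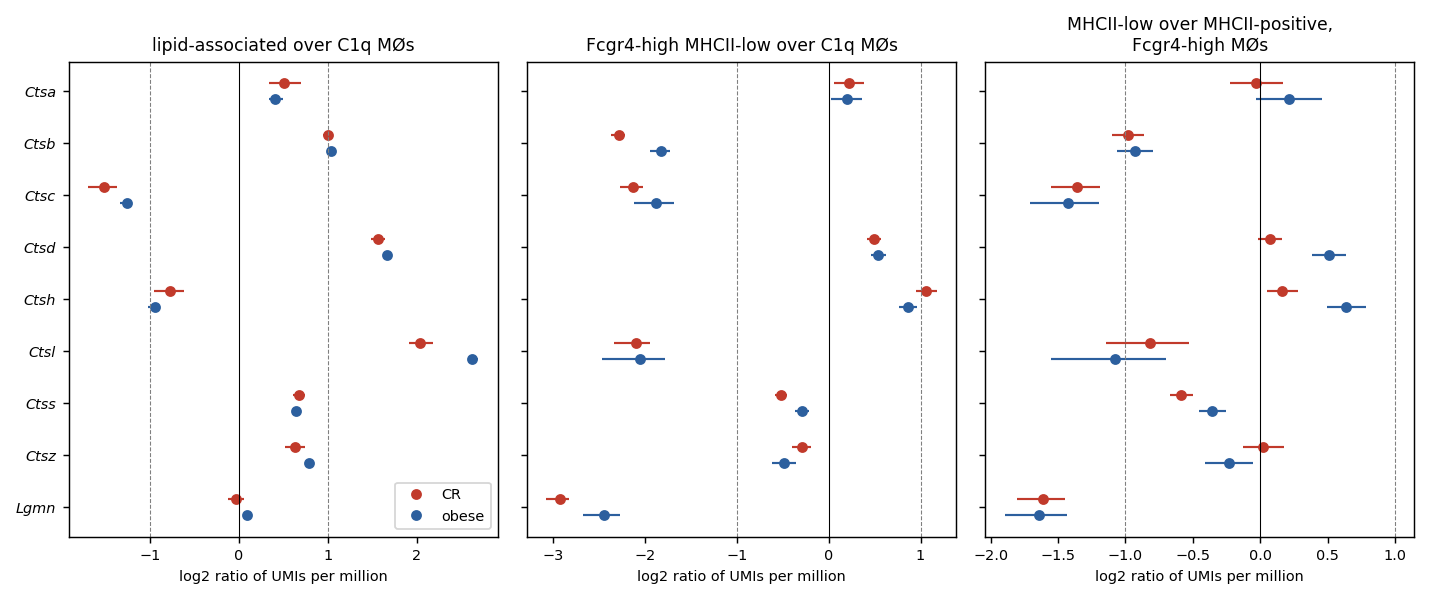
Log2 ratios between MØ gates for each of the 9 proteases, the CR library above the obese library in each row, with 95% counting intervals and dashed lines at 2-fold. Lgmn lies lowest of the 9 in Fcgr4-high MHCII-low over C1q MØs, at -2.93 and -2.45, and Ctsl highest in lipid-associated over C1q MØs, at 2.04 and 2.61.

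Within Fcgr4-high MØs, Lgmn, Ctsc, Ctsb, Ctsl and Ctss were lower in MHCII-low than in MHCII-positive cells of both libraries. Lgmn had 250 CPM in the CR MHCII-low cells, against 774 CPM in the CR MHCII-positive cells, and 274 CPM in the obese MHCII-low cells, against 867 CPM (log2 ratios -1.61 and -1.64). Ctsc had log2 ratios of -1.36 and -1.43 and Ctsb of -0.98 and -0.93. Ctss, the invariant chain protease, had 1903 CPM against 2855 CPM in the CR library and 2002 CPM against 2562 CPM in the obese library (log2 ratios -0.58 and -0.36). Ctsd and Ctsh did not share this direction: their log2 ratios were 0.07 and 0.16 in the CR library and 0.51 and 0.64 in the obese one. Ctsa (-0.03 and 0.21) and Ctsz (0.02 and -0.23) had no direction in common between the libraries. Over 2-fold lower in MHCII-low cells were 2 of the 9 in the CR library and 3 in the obese library, against 2.52% and 4.74% of all genes measured. None of the 9 was over 2-fold higher, against 0.779% and 2.48% of all genes. The MHCII-positive cells themselves were below C1q MØs in Lgmn, with log2 ratios of -1.32 and -0.81, in Ctsb (-1.31 and -0.90) and in Ctsl (-1.28 and -0.98). Against C1q MØs they had 3 of the 9 over 2-fold lower in the CR library and 0 in the obese library, where 5.64% and 2.91% of all genes were, and 0 higher in either, where 7.62% and 5.52% of all genes were.

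Fcgr4-high cells were also ranked by their rate of H2-Aa, H2-Ab1, H2-Eb1 and Cd74. The bins had the gate threshold of 30 as 1 edge. Lgmn rose from each bin to the next in both libraries. Such bins cannot tell a gradual change from a break. Lgmn had 194, 269, 387, 680 and 866 CPM in CR cells with rates of under 10, 10 to 20, 20 to 30, 30 to 100 and at least 100 per 10000, and 173, 256, 311, 594 and 1011 CPM in obese cells. Ctsb had 754 CPM in the lowest and 1625 CPM in the highest CR bin, and 920 and 1994 CPM in the obese ones. Ctsh ran the other way, with 1671 CPM in the lowest and 1397 CPM in the highest CR bin, and 1476 and 821 CPM in the obese ones. The obese cells lay nearer the threshold: 45.9% of the obese MHCII-low cells were within 1.5-fold of it, against 14.3% of the CR ones.

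Resident MØs carried a set like that of C1q MØs. Their log2 ratios to C1q MØs lay between -0.44 and 0.60 in the CR library and between -0.50 and 0.38 in the obese library, with Ctss lowest and Ctsb highest in both, and 0 of the 9 passed 2-fold. Of all genes measured, 5.07% and 2.45% were over 2-fold higher and 2.74% and 1.61% lower. Lgmn reached 2233 CPM in the CR and 1652 CPM in the obese resident MØs, and Ctsc 1423 and 1011 CPM. The CR gate held 32 cells.

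Classical monocytes had less Ctsb, Ctsd, Ctsl and Lgmn than C1q MØs. The other 5 members, Ctss among them, differed by at most 0.17 on the log2 scale in either library. Ctss had 2721 CPM in CR and 2450 CPM in obese C1q MØs, against 2834 and 2570 CPM in classical monocytes. Ctsb had 3725 and 3410 CPM in C1q MØs, against 1551 and 1045 CPM in classical monocytes (log2 ratios 1.26 and 1.70). Lgmn had 1933 and 1524 CPM, against 934 and 644 CPM (1.05 and 1.24). Ctsc was about as abundant in both, with 1200 and 876 CPM in C1q MØs, against 1351 and 875 CPM in classical monocytes. Patrolling monocytes had less Ctsc, 381 and 350 CPM, against the same classical monocytes (log2 ratios -1.81 and -1.31). The 9 were over 2-fold higher in C1q MØs than in classical monocytes for 2 members in the CR and 4 in the obese library, against 5.3% and 6.86% of all genes, and 0 were lower, against 7.28% and 8.04%. In patrolling over classical monocytes 3 members were over 2-fold lower in the CR library and 1 in the obese library, against 12% and 4.62% of all genes, and 0 were higher, against 10% and 5.38%. The 34 CR patrolling monocytes were the second smallest gate.

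Dendritic cells were low in most members. Ctsh and Ctss were more abundant in cDC2 and migratory DCs than in cDC1, which had the least of both among the 11 gates in each library. In cDC2, Ctsh had 1128 CPM in the CR and 956 CPM in the obese library, against 794 and 705 CPM in classical monocytes, and in migratory DCs it had 1135 and 955 CPM. Ctss had 1766 and 1553 CPM in cDC2, 1394 and 1303 CPM in migratory DCs and 699 and 617 CPM in cDC1. Ctsd was below the T cell level in all 3 DC gates of both libraries, with 205 and 151 CPM in cDC2 against 543 and 547 CPM in T cells. Erythroid cells had 182 and 285 CPM of Ctsd, so the CR cDC2 level lies just above theirs and the other DC levels below, and no Ctsd expression is read from the DC gates. For cDC1, 4 of the 9 in the CR library and 6 in the obese library were at or below the higher of the T cell and erythroid levels, among them Ctsb, Ctsd and Ctsl in both. The conventional DCs differed from each other: Ctsa had 75 and 52.9 CPM in cDC1, against 340 and 265 CPM in cDC2 (log2 ratios -2.11 and -2.22, the cDC1 level being below that of T cells), and Ctsh had 338 and 282 CPM, against 1128 and 956 CPM (-1.72 and -1.75). Over 2-fold lower in cDC1 than in cDC2 were 4 of the 9 in the CR library and 5 in the obese library, against 10.8% and 10.3% of all genes, and 0 were higher, against 6.39% and 5.13%. Migratory DCs had less Ctsa than cDC2, 79.3 and 83.7 CPM (log2 ratios -2.03 and -1.61), which is at the T cell level of 86.7 and 94.6 CPM, and as much Ctsh (0.01 and 0.00). Of the 9, 1 and 2 were over 2-fold lower in migratory DCs, against 19.5% and 18.9% of all genes, and 0 were higher, against 12.3% and 12.2%. Against classical monocytes, 5 of the 9 were over 2-fold lower in cDC2 in each library, against 9.38% and 8.69% of all genes, and 0 were higher, against 5.25% and 4.35%.

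B cells, which also present antigen, had Ctss, Ctsz and Ctsh above the level of T cells. Ctss had 815 CPM in CR and 880 CPM in obese B cells, against 281 and 404 CPM in T cells. Ctsz had 459 and 475 CPM, against 117 and 175 CPM, and Ctsh 394 and 461 CPM, against 69.5 and 143 CPM (log2 ratios 2.42 and 1.66). Ctsc and Lgmn were also over 2-fold higher in both libraries, so that 5 of the 9 were, against 8.84% and 7.39% of all genes. Ctsd was over 2-fold lower than in T cells (log2 ratios -1.17 and -1.09), against 12.7% and 9.4% of all genes. T cells had a Ctsd UMI in 54.8% and 52.4% of cells after thinning, against 22.4% and 23.0% of erythroid cells.

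Over the 11 gates in both libraries (22 points, which share 2 libraries and the depth of each), log levels of Ctsb, Ctsl and Lgmn went together, with Pearson's r of 0.91 for Ctsb and Ctsl, 0.90 for Ctsb and Lgmn, and 0.87 for Ctsl and Lgmn. Ctsa and Ctsd gave 0.85 and Ctss and Ctsz 0.87. Ctsh had r of -0.08 to 0.44 with the other 8. Among 4434 other genes, those most like Ctsb were Trem2 (0.94), Trim47 and Plin2. Those most like Ctsl were Arhgap10 (0.95), Trem2 and Syngr1, and those most like Ctsd were Blvra (0.96), Nceh1 and Pla2g15. Sirpa (0.96), Ms4a6d and Slc43a2 were nearest to Ctsa, F13a1 (0.90), Cmklr1 and Hacd4 to Ctsc, and Tmem176b (0.87), Tmem176a and Map3k8 to Ctsh. Lilrb4a (0.93), Cd300lb and Slfn2 were nearest to Ctss, Cstb (0.92), Idh1 and Ctss to Ctsz, and Il10rb (0.93), Tmem37 and Sepp1 to Lgmn. These are descriptions over the gates.

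Many lysosomal genes carry a CACGTG element, to which transcription factors of the MiT/TFE family bind, often as the longer TCACGTGA. Both read the same on both strands, and each TCACGTGA holds a CACGTG. RefSeq promoters (GRCm38.p6, 250 bases before to 50 after a start site) were given for 7 of the 9 genes, Ctsb and Ctsh being the exceptions, and CACGTG was found for 4 of them: Ctsa, Ctsd, Ctsl and Lgmn. Each is shown 5′ to 3′ on the strand of its gene with CACGTG in capitals, since these 4 genes have different patterns over the gates.
Ctsa, chr2:164833749-164833772, plus strand, 12 bases before its second start site: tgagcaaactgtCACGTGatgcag
Ctsa, chr2:164833766-164833795, plus strand, just after that start site: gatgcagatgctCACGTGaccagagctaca
Ctsd, chr7:142388055-142388077, minus strand, 245 bases before the start: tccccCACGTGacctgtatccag
Ctsd, chr7:142387908-142387937, minus strand, 98 bases before the start: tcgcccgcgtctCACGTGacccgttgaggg
Ctsl, chr13:64370739-64370768, minus strand, 236 bases before the start: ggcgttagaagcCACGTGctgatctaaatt
Lgmn, chr12:102439124-102439153, minus strand, 49 bases before the start: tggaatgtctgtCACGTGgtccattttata
The 2 Ctsa elements and the nearer Ctsd element are TCACGTGA. The RefSeq start sites named here lie inside the gene spans given above, not at their ends. The Ctsa, Ctsl and Lgmn elements and the nearer Ctsd element therefore lie within those spans. CACGTG was in 7.15% of all 32851 promoter windows and TCACGTGA in 0.974%. These shares count windows, and the 7 genes had 9 windows. Of the 2 Lgmn start sites, the first holds the element shown and the second had 0. The first Ctsa start site had 0 as well. Ctsd and Ctsa, which were at or above the C1q MØ level in Fcgr4-high MHCII-low MØs, and Ctsl and Lgmn, which were low there, all hold a CACGTG, and none was found in the windows of Ctsc, Ctss and Ctsz. A match is a description of these letters, and none of the libraries measured binding.

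Between CR and obese cells of the same gate the proteases differed less than between gates. Over 9 members and 11 gates, 1 value was past 2-fold, Ctsl in classical monocytes, with 365 CPM in CR and 178 CPM in obese cells (log2 ratio 1.01, interval 0.72 to 1.35). There 2.6% of all genes measured were over 2-fold higher in CR cells and 3.38% were past 2-fold in either direction. The obese value lies below the 207 CPM of obese erythroid cells, which carried more C1q RNA than T cells. CR erythroid cells had 60.2 CPM. T cells had 101 CPM in the CR and 56.8 CPM in the obese library, a log2 ratio of 0.78 (0.46 to 1.2) in the same direction. Ctsd in the same cells lay just under the line, with 1145 CPM in CR and 571 CPM in obese classical monocytes (log2 ratio 1.00, interval 0.83 to 1.18). In the other gates 0 of the 9 passed 2-fold in either direction. Over all genes measured in those gates, between 1.07% (cDC1) and 9.33% (patrolling monocytes) did, with 1.4% in lipid-associated, 1.73% in C1q, 3.73% in resident, 2.3% in Fcgr4-high MHCII-low and 3.83% in Fcgr4-high MHCII-positive MØs, 1.63% in cDC2, 6.72% in migratory DCs and 2.95% in B cells.

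Ctsd was higher in CR than in obese cells in all 5 MØ gates, by less than 2-fold. The log2 ratios were 0.34 (0.30 to 0.38) in lipid-associated MØs, 0.44 (0.37 to 0.52) in C1q MØs, 0.65 (0.51 to 0.79) in resident MØs, 0.39 (0.31 to 0.48) in Fcgr4-high MHCII-low MØs and 0.83 (0.70 to 0.96) in Fcgr4-high MHCII-positive MØs. Ctsd also had 543 CPM in CR and 547 CPM in obese T cells, a ratio near 1. The direction held under all 14 other ways of processing, with log2 ratios of 0.24 to 1.23 over these gates. Ctsa and Ctsc were above 0 in all 5 MØ gates as well, with log2 ratios of 0.11 to 0.45 and 0.13 to 0.49 and some intervals that reach 0. Their signs were less stable: in lipid-associated MØs Ctsc was -0.06 without the filter on mitochondrial share and UMIs, and Ctsa was -0.05 with thinned cells. In Fcgr4-high MHCII-low MØs thinning gave -0.08 for Ctsc and -0.09 for Ctsa, and in C1q MØs Ctsa was -0.07 with TMM scaling. Ctsb and Lgmn were split: Ctsb had log2 ratios of -0.33 and -0.28 in the MHCII-low and MHCII-positive Fcgr4-high MØs, and 0.08, 0.13 and 0.35 in lipid-associated, C1q and resident MØs. Ctsl had 0.39 in C1q MØs and -0.19 in lipid-associated MØs. The lipid-associated value turned to 0.09 when the filter on mitochondrial share and UMIs was left out, which raised the CR gate to 245 cells and the obese gate to 788. Ctsd had a log2 ratio of 0.52 in those unfiltered cells.

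**Figure D4:**
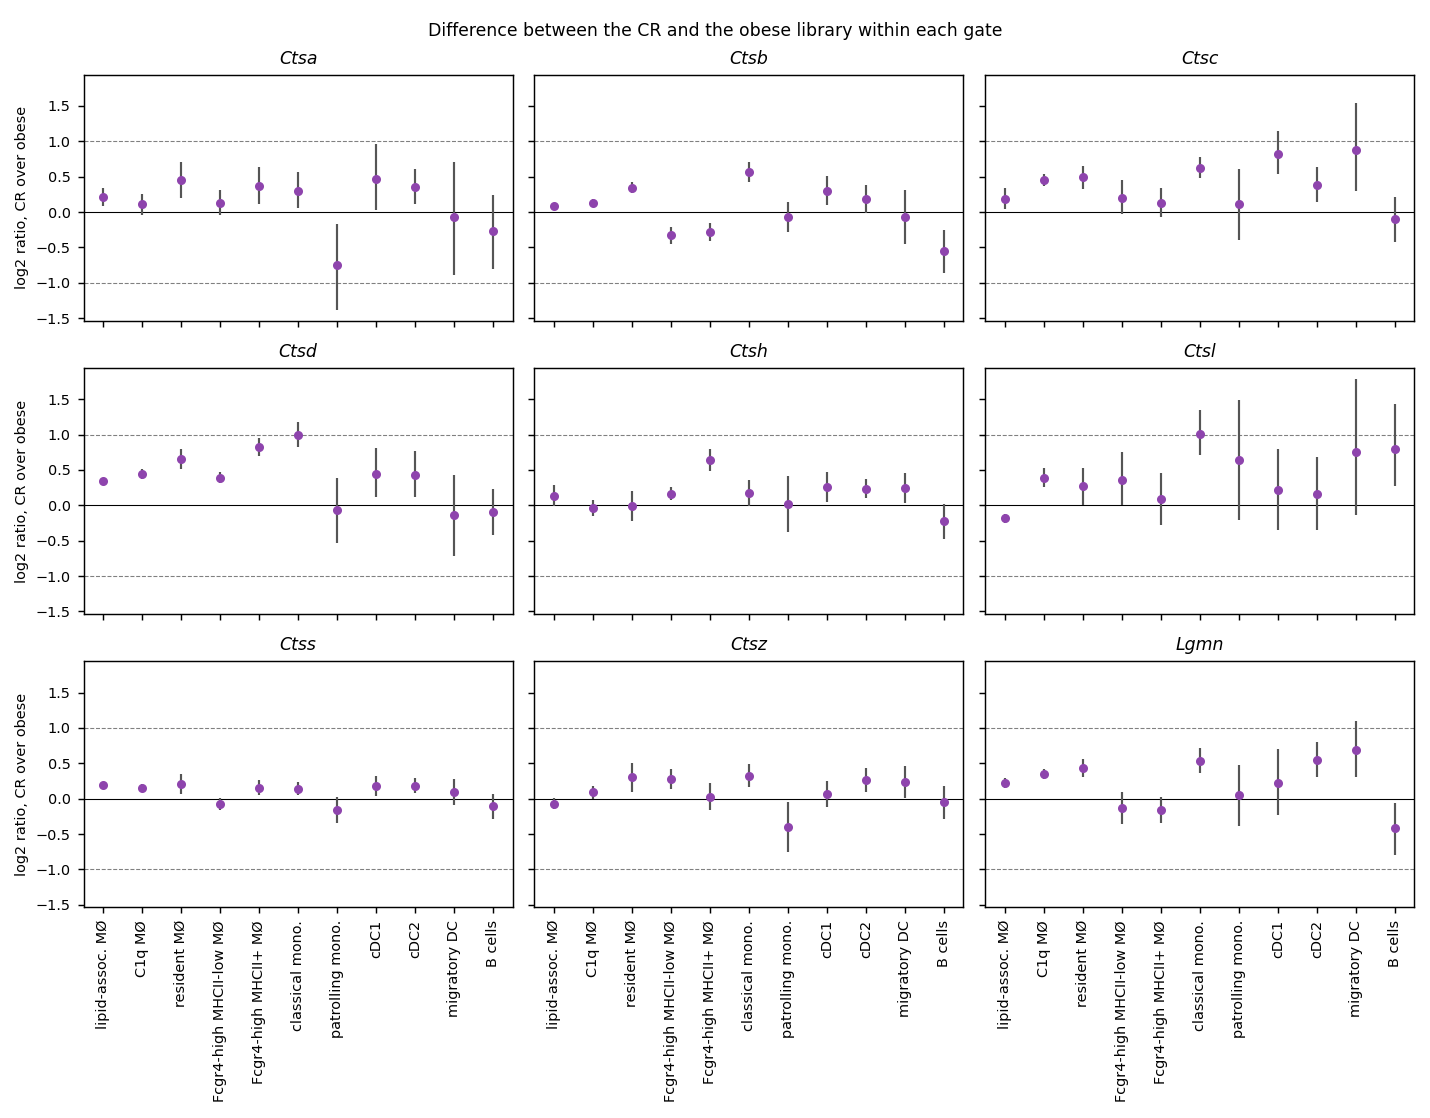
Log2 ratio of CR over obese for each of the 9 proteases (1 panel each) in 11 gates, with 95% counting intervals and dashed lines at 2-fold. Ctsd lies above 0 in all 5 MØ gates, at 0.34 to 0.83, and only Ctsl in classical monocytes lies past the 2-fold line, at 1.01.

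The median of the 9 log2 ratios was 0.53 in classical monocytes, where all genes measured had a median of 0.06. In the 5 MØ gates it was between 0.13 and 0.35, with medians of all genes between -0.01 and 0.13. It was 0.26 in cDC1, 0.26 in cDC2 and 0.24 in migratory DCs, against 0.15, 0.10 and 0.11 for all genes, -0.07 in patrolling monocytes, against 0.04, and -0.11 in B cells, against 0.04. Ctsa in patrolling monocytes had the lowest ratio of the 9 members in the 11 gates, with 240 CPM in CR and 405 CPM in obese cells (log2 ratio -0.74), over 34 and 84 cells. Non-haematopoietic cells kept in the libraries (639 CR, 142 obese) had 1024 CPM of Ctsl in the CR library and 1160 CPM in the obese one, and their RNA was more abundant in the CR gates, as given above. The part of that RNA in the Ctsl values was not tested.

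Pooling the Fcgr4-high gates gave other ratios than the gates on their own. MHCII-low cells were 86.7% (83.7% to 89.4%, exact Clopper-Pearson) of the 573 CR cells and 58.4% (52.2% to 64.3%) of the 269 obese cells. Over the pool Lgmn had 329 CPM in CR and 551 CPM in obese cells, a log2 ratio of -0.74 (-0.88 to -0.61). Its ratio was -0.13 (-0.36 to 0.10) within the MHCII-low and -0.16 (-0.35 to 0.02) within the MHCII-positive gate. Ctsb was -0.64 in the pool, against -0.33 and -0.28 within the gates. Ctsc was -0.34 (-0.48 to -0.20) in the pool. Within the gates it was 0.20 (-0.03 to 0.45) and 0.13 (-0.08 to 0.33), and both of these intervals include 0. Ctsd, which differed little with MHCII in CR cells, was 0.60 in the pool, against 0.39 and 0.83.

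Of 12 other lysosomal and granule proteases, 3 to 6 were measured in a MØ gate. Ctsk, the cathepsin best known from osteoclasts, was the only one past 2-fold between the libraries in a MØ gate. Of all genes measured, 1.4% (lipid-associated) to 3.83% (Fcgr4-high MHCII-positive) were past it in these gates. It had 440 CPM in the CR lipid-associated MØs and 205 CPM in the obese ones (log2 ratio 1.09, 0.95 to 1.26), with a UMI in 46.2% and 27.3% of the cells. The top 5% of these cells held 56.9% of the CR and 79.5% of the obese Ctsk UMIs. Without the filter the log2 ratio was 0.98, with 502 and 252 CPM. Non-haematopoietic cells had 366 and 392 CPM of Ctsk. Ctso in resident MØs (82.6 CPM in CR and 41.8 CPM in obese cells) and Dpp7 in lipid-associated MØs (83.4 and 43.5 CPM) were next, at log2 ratios of 0.90 and 0.87. Napsa, the aspartic protease napsin A, had 1117 and 1095 CPM in patrolling monocytes and 1088 and 888 CPM in cDC2.

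Of 13 protease inhibitors, 3 or 4 of which were measured in a MØ gate, 0 passed 2-fold between the libraries there. With 1.4% to 3.83% of all genes past 2-fold in these gates, 0 or 1 of so few genes is not read as a trait of this list or of those below. The most different were Serpinb1a in Fcgr4-high MHCII-positive MØs, with 36.6 and 65.9 CPM, and Serpinb6a in MHCII-low ones, with 279 and 375 CPM. Cst3, the secreted inhibitor cystatin C, had 7486 CPM in the CR and 9332 CPM in the obese Fcgr4-high MHCII-low MØs, against 3547 and 4193 CPM in C1q MØs, and reached 29928 and 34259 CPM in cDC1, the gate with the least protease RNA of the 11. Cstb, the cytosolic inhibitor cystatin B, had 1912 and 2103 CPM in lipid-associated MØs, against 931 and 869 CPM in C1q MØs. Among 13 sorting receptors and lysosomal partners, 6 to 8 of them measured, 0 passed 2-fold in a MØ gate. Psap, which encodes the precursor of the saposins, had 5903 and 5704 CPM in lipid-associated MØs and 1291 and 1747 CPM in Fcgr4-high MHCII-low MØs. Lamp2, a lysosomal membrane protein, had 158 and 241 CPM in Fcgr4-high MHCII-positive MØs, and Nagpa, which uncovers the mannose 6-phosphate tag, had 53.9 and 34.4 CPM there. Neu1, the neuraminidase that cathepsin A protects, had 90.4 and 52.3 CPM in resident MØs. Of 6 class II chaperones and invariant chain genes, 3 or 4 of them measured, only H2-DMb2 passed, in Fcgr4-high MHCII-positive MØs, with 34 CR UMIs and 6 obese UMIs, and Cd74, which served as a gate marker, had 12730 and 22452 CPM in resident MØs. H2-DMa, a subunit of the peptide exchange chaperone, had 337 CPM in CR and 611 CPM in obese Fcgr4-high MHCII-positive MØs (log2 ratio -0.85). Of 4 MiT/TFE factors, at most 1 was measured in a MØ gate and 0 passed 2-fold. Mitf had 50.1 and 33.7 CPM in lipid-associated MØs, Tfe3 had 62.9 and 29.6 CPM in resident MØs, and Tfeb had 61 and 72.2 CPM in Fcgr4-high MHCII-low MØs.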

How the data were processed

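Single-cell RNA of CD45+ VAT cells was measured in 1 CR and 1 obese library (v2 Chromium 3′ chemistry). The authors aligned reads to mm10 and counted UMIs with Cell Ranger, and deposited raw counts per gene and barcode, which were used as deposited. No deposited column of values was left unused (0). UMIs are counted at the 3′ end, so levels do not scale with gene length.

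Barcodes with fewer than 200 genes, or whose mitochondrial share or log10 UMI total exceeded the library median by more than 3 scaled MADs, were left out, which kept 83.9% of CR and 90.8% of obese cells, with 19696476 and 42948242 UMIs. No doublets were removed. Gates used UMIs per 10000 of marker genes, and their thresholds were set after the markers' distributions were seen. Counts were summed per gate and library and scaled to counts per 1000000 (CPM). A gene was measured with at least 20 UMIs over both groups together and 50 CPM in 1 of them, and a fold was called past 2. Levels have exact Poisson intervals, ratios exact conditional intervals computed before 5 CPM were added to each side, and shares Clopper-Pearson intervals. Cells are not replicates, so no p was computed. The genes named are the 9 members and the 3 genes most correlated with each. From each related list they are the 3 measured members with the largest absolute log2 ratio of CR over obese in a MØ gate. Those acting on a protease directly were added. Napsa was named outside this rule, and no level is given for Glb1, which the rule also listed. Members, lists and gates were chosen with earlier results of these data known. The steps were tested on simulated data. Tools were Python 3.11.15, numpy 2.4.6, scipy 1.17.1, pandas 2.3.3, scanpy 1.11.5 and, for TMM factors, edgeR 4.0.16 in R 4.3.3. The 12 other settings chosen first covered pseudocounts, filters, scaling, thinning, gates, cycling cells, doublets and ambient RNA, and 2 more were chosen after seeing the data: doubled gate rates, and leaving out barcodes found in both libraries.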

Additional observations from a re-analysis of the deposited data

How the results depend on the processing

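The 68 ratios between gates past 2-fold stayed past it, in the same direction, in 59 cases with cells thinned to 1500 UMIs, the lowest number, and in up to 68 under the others. Ctsl, Ctsd and Ctsc in lipid-associated over C1q MØs, and Lgmn, Ctsb, Ctsc and Ctsl in Fcgr4-high MHCII-low over C1q MØs, were past 2-fold in both libraries under all 14 alternatives. Ctsb in lipid-associated over C1q MØs was within 2-fold under 7 of the 14 in the CR library and 4 in the obese one. Between CR and obese classical monocytes, the count of proteases past 2-fold (1) was 2 with a pseudocount of 1 CPM, no filter, fixed maxima of 10% mitochondrial share and 20000 UMIs, gates asking 1 more UMI, no cells of the highest 5% of doublet scores, or ambient CPM taken off. It was 0 with a pseudocount of 20 CPM, the mean CPM of single cells, ribosomal, haemoglobin and mitochondrial genes left out of the totals, TMM scaling, thinned cells, no cycling cells, or doubled gate rates. The count (0) became 1 in resident MØs without the filter, in Fcgr4-high MHCII-positive MØs and B cells with ambient CPM taken off, in patrolling monocytes with thinned cells, and in migratory DCs with the mean CPM of single cells, and 2 in cDC1, cDC2 and migratory DCs with ambient CPM taken off. The ambient CPM taken off was the T cell level of each gene, such as 543 CPM of Ctsd in the CR and 547 CPM in the obese library. That is more Ctsd than any DC gate had, so the DC counts with ambient CPM taken off are not read. The cause of the other changes was not tested. TMM factors moved the median of all measured genes by over 0.1 in some gates, the most in cDC1, to -0.07 from 0.15 as reported. No paired analysis was possible because each condition has 1 library. Depth limits members near the T cell or erythroid level, mainly in DCs and patrolling monocytes.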
